A study of Mus musculus with 98 samples.

Results

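Regenerated innate lymphoid cells (ILCs), which are lymphocytes that carry no rearranged antigen receptor, were divided by their own level of Gata3, and the rest of the transcriptome was compared between both sides. The comparison covered 32 of the 98 cell columns of the series, all of them regenerated R9-ILCs whose titles carry no second number. A cell was called Gata3-high at 10 TPM or more of Gata3 (an abundance per transcript length, scaled to the same total in every cell), which gave 22 cells, and Gata3-low under 10 TPM, which gave 10 cells. All 32 cells share 1 origin in the labels. They were regenerated from pluripotent stem cells (strain C57BL/6), and sorted 3 weeks after transplantation as CD45.2+GFP+Lin-CD127+ cells from the gut of Rag2-/-Il2rg-/- recipients, hosts that lack their own T, B, NK and innate lymphoid cells but keep their gut epithelium, mast cells and macrophages. The series also holds 35 R9-ILC columns of the same description whose titles end in 1, and 31 WT-ILC columns, CD45.2+Lin-CD127+ cells from the intestine of 8-week-old wild-type C57BL/6 mice. The labels name no animal and do not say what the title ending stands for. The 32 cells therefore count as 1 sample, and no difference below has a replicate check, a p-value or a standard error.

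GATA3 is a zinc finger transcription factor that binds the letters GATA in DNA and is needed for the development of all helper-like ILCs. Group 2 ILCs (ILC2s) keep it at high levels and use it to switch on type 2 cytokine genes. Group 3 ILCs (ILC3s), the most common ILCs of the gut, keep lower amounts of GATA3 and release cytokines that maintain the gut barrier.

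Gata3 lies on chromosome 2, from base 9857078 to base 9890034 on the minus strand of GRCm38 (mm10). Its RefSeq promoter window is shown because Gata3 chose the cells, and the windows of Ahsa1, Cox6b1 and Apool are shown because they were the leading genes (described below) whose window held letters that GATA factors can bind. A window runs from 250 bases before to 50 bases after the annotated start (GRCm38.p6). Capitals mark a match on either strand to one of 4 words that GATA factors are known to bind. The first word was AGATAA and the next was TGATAA. Their forms with a final G were AGATAG and, for the other, TGATAG. No 2 of the matches printed here overlap.
Gata3, chr2:9878551-9878850, minus strand: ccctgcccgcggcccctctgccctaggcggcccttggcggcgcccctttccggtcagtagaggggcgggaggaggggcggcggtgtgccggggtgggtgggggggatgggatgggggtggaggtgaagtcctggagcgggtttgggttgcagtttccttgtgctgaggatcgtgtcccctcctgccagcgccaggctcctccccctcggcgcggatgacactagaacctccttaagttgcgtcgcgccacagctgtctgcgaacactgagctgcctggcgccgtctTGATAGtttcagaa
Ahsa1, chr12:87266478-87266777, plus strand: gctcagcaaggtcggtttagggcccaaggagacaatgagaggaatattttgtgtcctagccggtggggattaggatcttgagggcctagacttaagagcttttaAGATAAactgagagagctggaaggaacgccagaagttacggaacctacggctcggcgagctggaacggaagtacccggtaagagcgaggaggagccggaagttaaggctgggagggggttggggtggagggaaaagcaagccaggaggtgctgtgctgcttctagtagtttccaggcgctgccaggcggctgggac
Cox6b1, chr7:30626065-30626364, minus strand: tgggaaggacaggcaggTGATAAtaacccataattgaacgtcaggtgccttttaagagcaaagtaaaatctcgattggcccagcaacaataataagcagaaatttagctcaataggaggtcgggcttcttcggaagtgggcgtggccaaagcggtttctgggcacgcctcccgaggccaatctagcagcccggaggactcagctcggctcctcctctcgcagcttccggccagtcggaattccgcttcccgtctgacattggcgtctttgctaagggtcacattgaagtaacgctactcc
Apool, chrX:112311102-112311401, plus strand: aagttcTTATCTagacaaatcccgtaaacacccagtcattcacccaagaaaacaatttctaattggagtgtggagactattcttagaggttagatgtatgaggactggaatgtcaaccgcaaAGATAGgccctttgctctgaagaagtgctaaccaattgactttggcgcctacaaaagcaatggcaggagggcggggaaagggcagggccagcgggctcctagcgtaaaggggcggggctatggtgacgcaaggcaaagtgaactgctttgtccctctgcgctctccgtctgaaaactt
Of all 27025 first-listed windows in the RefSeq table, 8166 (30.2%) held such a match. Among the leading genes described below, 1 of the 15 higher in Gata3-high cells held one (Ahsa1), as did 2 of the 12 matched windows of genes lower in Gata3-high cells (Cox6b1 and Apool). Ndufb9, Cdipt and Cndp2 are named only.

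In the 22 Gata3-high cells, Gata3 ranged from 11.5 to 274 TPM with a median of 60.1 TPM, while all 10 Gata3-low cells listed it at 0. The cells were chosen by these Gata3 values, which are therefore given as a description. The Gata3-high cells nearest to the limit had 11.5 and 13.4 TPM, and no cell lay between 0 and 11.5 TPM. The high side was itself spread out, with 10 cells at 100 TPM or more, 1 cell at 82.7 TPM and 11 cells between 11.5 and 37.5 TPM. Among the 35 cells of title ending 1, 8 reached 10 TPM (55.9 to 422 TPM, median 212 TPM), 6 lay under the limit but above 0, from 0.377 TPM upward, and 21 were listed at 0. Of the 31 WT-ILC columns, which come from a table the authors normalized separately, 1 reached the limit with 10.6 TPM, the next highest had 3.12 TPM, and 23 were listed at 0. These columns carry 23 title numbers, and the 8 pairs that share a number had a Pearson r of 0.844 to 0.995 over log2(TPM + 1) of the genes seen in both, against a median of 0.268 over the 457 other pairs, whose highest was 0.967, between a column of number 16 and one of number 32. Such a pair may be 1 cell read again, so the WT-ILC columns are not counted as 31 separate cells. Counted by number, 1 of 23 reached the limit and 15 were listed at 0 in every column. A listed 0 can be a failed estimate. Gapdh, a glycolytic enzyme gene that every cell uses, stayed under 1 TPM in 15 of the 22 Gata3-high cells and 9 of the 10 Gata3-low cells. A low cell is therefore a cell in which Gata3 was listed at 0, not one shown to lack it.

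**Figure D1:**
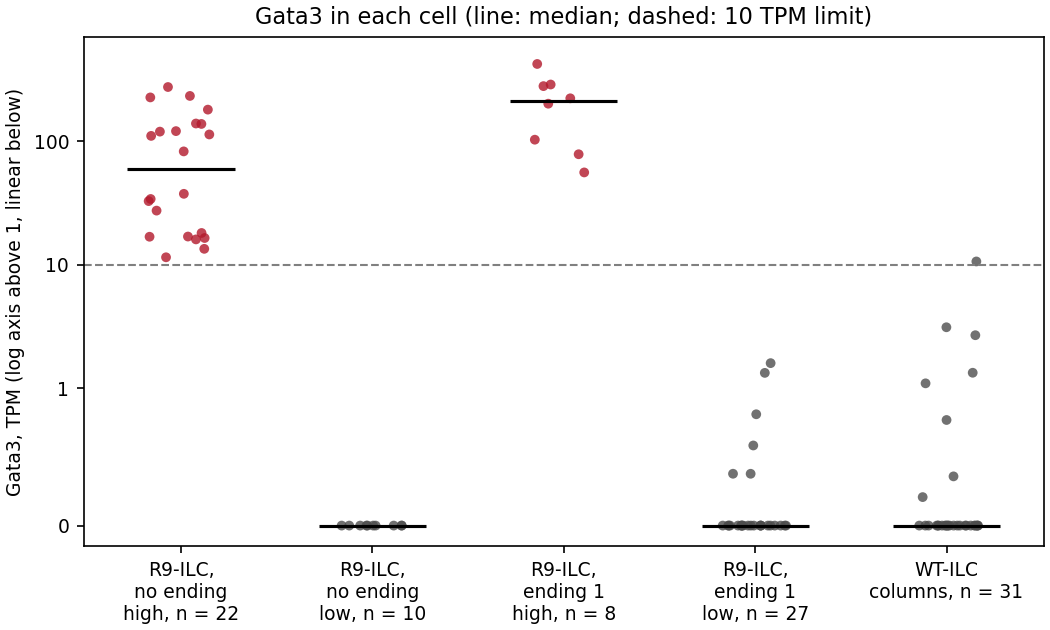
Gata3 in TPM (log axis above 1, linear below) in each cell column, by title series and by the 10 TPM limit (dashed). Points are cell columns and lines are medians. In the cells without a title ending, the 22 Gata3-high cells lie between 11.5 and 274 TPM and the 10 Gata3-low cells all lie at 0.

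None of the other GATA genes separated the sides. Gata2, used by mast cells and blood stem cells, reached 1 TPM in 1 of 22 Gata3-high cells (5.16 TPM) and 1 of 10 Gata3-low cells (6.19 TPM). Gata1, Gata4, Gata5 and Gata6 were listed at 0 in all 32 cells.

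Slightly more genes reached 1 TPM in a Gata3-high cell, but the sides overlapped widely. The number of genes ranged from 1187 to 2989 in Gata3-high cells (median 2242.5, mean 2191 ± 424, SD, n = 22 cells) and from 1542 to 2618 in Gata3-low cells (median 1955.5, mean 1997 ± 316, SD, n = 10 cells). The fewest and the most genes were both found on the Gata3-high side. One gene alone took 10% or more of the TPM of a cell in 18 of 22 Gata3-high cells and 8 of 10 Gata3-low cells, and the leading gene of a cell held a median of 19.7% of TPM in Gata3-high cells and 15.4% in Gata3-low cells. Since TPM holds no depth, that of a cell is unknown. The highest Pearson r between any 2 of the 32 cells was 0.754, and no pair stood out as a repeat of 1 cell.

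Within the Gata3-high side, the Gata3 level moved with the scale of the whole cell. The 5th percentile of a cell's TPM values above 0, a view of how large its smallest listed values were, had a median of 23.6 (8.83 to 35.1) in the 11 cells at 50 TPM or more of Gata3, 5.82 (2.43 to 14.4) in the 11 Gata3-high cells under 50 TPM, and 7.64 (1.43 to 21.2) in the 10 Gata3-low cells. Over the 22 Gata3-high cells, Spearman's rho between Gata3 and that percentile was 0.78, and between Gata3 and genes detected it was 0.56. This is a description over cells whose values on both axes share the same library and scaling. Gata3 divided by the percentile had a median of 7.63 in the 11 cells at 50 TPM or more and 4.45 in the 11 under 50 TPM, with ranges of 2.91 to 15.7 and 1.17 to 7.68. Below, values are also given with each cell scaled by its common genes (the median of the genes seen in nearly every cell) or by that percentile, the second chosen after seeing the data. The part of this scale in the differences was not tested beyond these rescaled values.

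**Figure D2:**
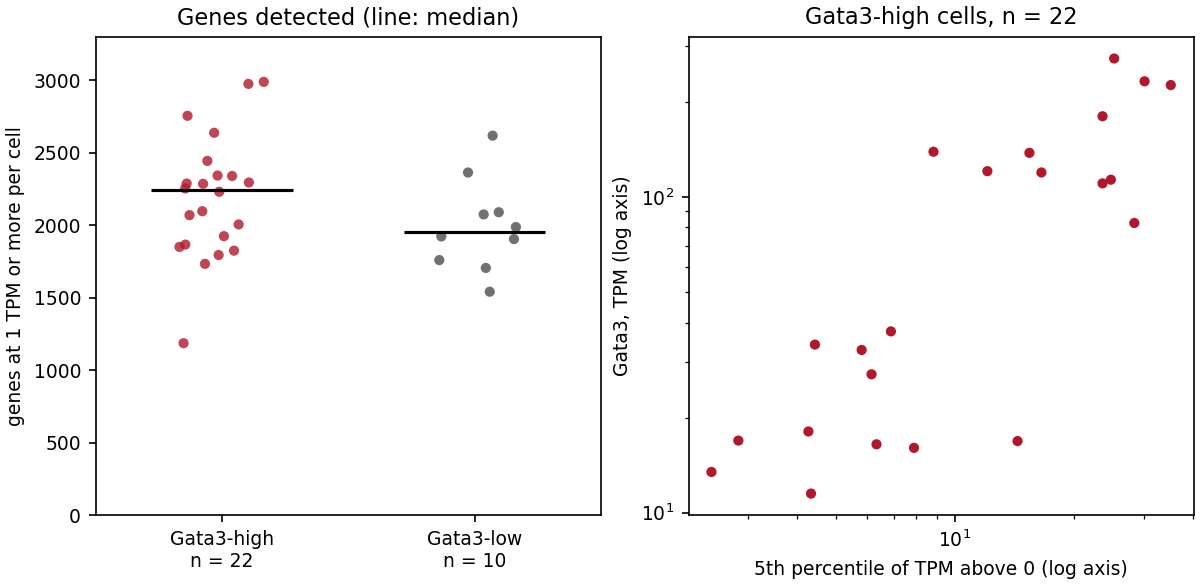
Left, genes at 1 TPM or more in each Gata3-high and Gata3-low cell, with medians of 2242.5 and 1955.5 as lines. Right, Gata3 in TPM against the 5th percentile of the cell's TPM values above 0 in the 22 Gata3-high cells, both on log axes, where cells with more Gata3 also had larger small values.

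Most genes differed little between the sides when set against the spread between cells. Of 23420 gene symbols, 4739 other than Gata3 reached 1 TPM in at least 5 of the 32 cells and were compared by their mean log2(TPM + 1). Such a difference understates the change of low genes. The mean was higher in Gata3-high cells by 2 or more (4-fold on this scale) for 211 genes (4.45%) and lower by 2 or more for 68 genes (1.43%), and 65.3% of genes were higher at all. These shares (5.89% past 2 in either direction) are the background for the lists below. The counts of genes past 2 were 183 higher and 146 lower with the common genes scaling. With the 5th percentile scaling they were 192 higher and 121 lower. Averaged over the cells with fewer and with more genes detected, they were 150 higher and 154 lower. The median difference over all genes was 0.36 (0.14 and 0.21 with the scalings, and 0.15 in that average), against a median SD between cells of 2.59. The share of cells at 1 TPM or more was at least 30 percentage points higher in Gata3-high cells for 246 genes (5.19%) and at least 30 points lower for 128 genes (2.7%). For 0 of the 4739 genes (0%) did the range of the Gata3-high cells lie apart from that of the Gata3-low cells. The filter itself leaned to the larger side, since a gene seen only in Gata3-high cells needed 5 of 22 cells and one seen only in Gata3-low cells needed 5 of 10. In all, 218 compared genes were in no Gata3-low cell and 0 were in no Gata3-high cell. Among the 211 higher genes, 28 were in no Gata3-low cell, where a difference cannot be read as a fold. Without each gene's highest cell on each side, 197 of the 211 higher genes were still past the limit. So were 36 of the 68 lower genes. That step takes 1 of 22 Gata3-high but 1 of 10 Gata3-low cells, so it tends to lower the Gata3-low mean more. The median over all genes was then 0.59, so the 2 counts are not a like comparison.

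**Figure D3:**
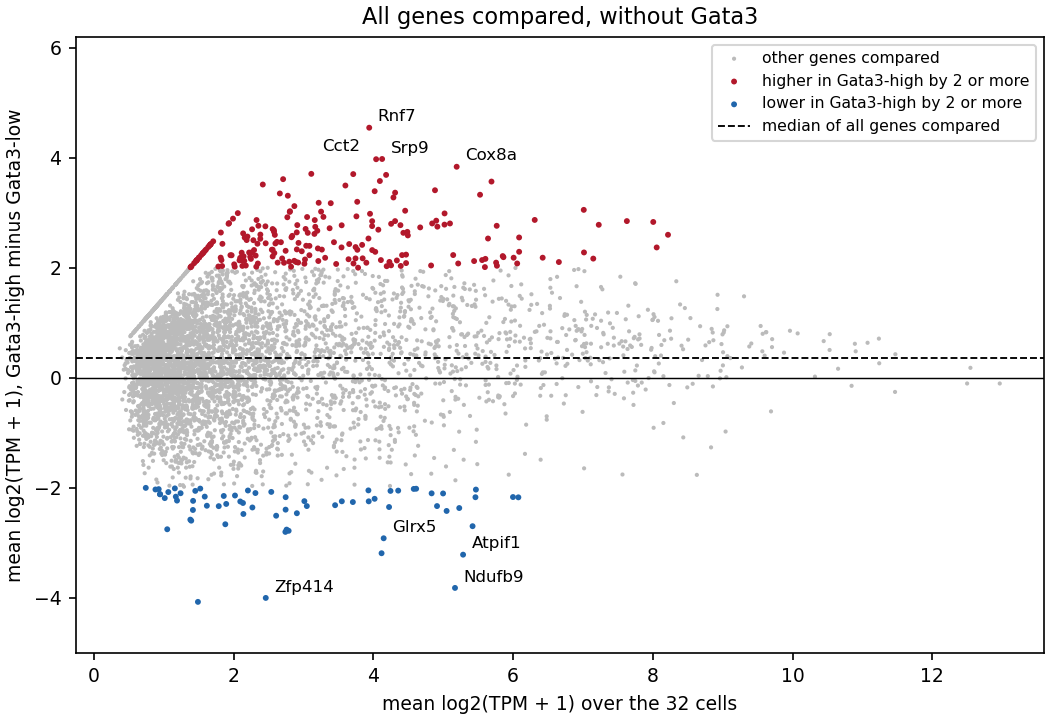
Difference in mean log2(TPM + 1), Gata3-high minus Gata3-low, against the mean over the 32 cells for the 4739 genes compared. Red marks the 211 genes higher by 2 or more and blue the 68 genes lower by 2 or more, and the dashed line is the median of 0.36.

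The genes that led the Gata3-high side encode proteins with general cell functions, and each was also seen in some Gata3-low cell except Vps25. Rnf7, a RING subunit of cullin ubiquitin ligases (chromosome 9, bases 96470937 to 96478675), had 0 to 518 TPM (median 91.3) in Gata3-high cells and 0 to 33.5 TPM (median 0) in Gata3-low cells, a difference of 4.55 in mean log2(TPM + 1). It reached 1 TPM in 17 of 22 Gata3-high cells (77.3%, 54.6 to 92.2) and 2 of 10 Gata3-low cells (20%, 2.52 to 55.6), intervals that overlap slightly. Below, a value in brackets with no unit is a difference in mean log2(TPM + 1), Gata3-high minus Gata3-low, and such intervals are exact Clopper-Pearson 95% intervals and cover counting error only. Srp9, a subunit of the signal recognition particle, was seen in 17 of 22 Gata3-high cells (0 to 581 TPM, median 84.1) and 2 of 10 Gata3-low cells (0 to 138 TPM, median 0), a difference of 3.98. Cct2, a subunit of the chaperonin that folds actin and tubulin, was seen in 17 of 22 Gata3-high and 2 of 10 Gata3-low cells, a difference of 3.97. Its Gata3-high sum rested on 1 cell with 66.1% of it, and without the highest cell on each side the difference was 4.32.

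Several of the other leading genes belong to respiration, protein handling and vesicle traffic. Cox8a, a subunit of cytochrome c oxidase, had 0 to 29466 TPM (median 218) in Gata3-high cells and 0 to 389 TPM (median 0) in Gata3-low cells (3.84). Ndufs6 and Ndufa10, subunits of respiratory complex I, differed by 3.69 and 3.37, and 1 Gata3-high cell held 97.4% of the Ndufa10 total of its side. Ahsa1, which speeds up the ATPase of the chaperone Hsp90 and whose window is printed above, was seen in 15 of 22 Gata3-high cells and 2 of 10 Gata3-low cells (3.70). The cyclophilin-like gene Ppil2 was seen in 15 of 22 Gata3-high and 1 of 10 Gata3-low cells, the guanine nucleotide exchange factor gene Arhgef3 in 16 of 22 Gata3-high and 1 of 10 Gata3-low, and Fam53a in 13 of 22 Gata3-high and 1 of 10 Gata3-low. Their differences were 3.71, 3.61 and 3.31. Vps25, a subunit of the endosomal sorting complex ESCRT-II, had 0 to 415 TPM (median 18.5) in Gata3-high cells and was listed at 0 in all 10 Gata3-low cells, so no fold is given. Itm2c, a BRI family membrane protein gene, and Snx3, a sorting nexin gene of endosomes, were the most widely seen, in 21 of 22 and 20 of 22 Gata3-high cells, each against 5 of 10 Gata3-low cells (3.57 and 3.33). Nudt4, which removes phosphates from inositol pyrophosphates, differed by 3.39, and Tmem179b by 3.50, with 1 cell holding 84.4% and 90.1% of the Gata3-high total.

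Some genes of antigen presentation and of lymphocyte signalling were among those with the largest difference in the share of cells. Tap1, which carries peptides into the endoplasmic reticulum for MHC class I, was seen in 16 of 22 Gata3-high cells (0 to 349 TPM, median 32.4) and 2 of 10 Gata3-low cells (0 to 74.1 TPM, median 0), a difference of 3.18. Vav1, the exchange factor that links antigen and integrin receptors to Rac, was seen in 16 of 22 Gata3-high and 2 of 10 Gata3-low cells (2.67), and Klhl6, a kelch-family ubiquitin ligase adaptor of lymphocytes, in the same numbers of cells (2.71). Sppl2a, a membrane protease that clears the invariant chain remnant, was seen in 18 of 22 Gata3-high and 3 of 10 Gata3-low cells (3.17).

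Genes that led in the other direction were likewise of general function, and most were present in a minority of Gata3-high cells. Zfp414, a zinc finger protein gene (chromosome 17, bases 33629090 to 33631779), had 0 to 369 TPM (median 0) in Gata3-high cells and 0 to 931 TPM (median 55.0) in Gata3-low cells, a difference of -4.00. It was seen in 4 of 22 Gata3-high cells (18.2%, 5.19 to 40.3) and 8 of 10 Gata3-low cells (80%, 44.4 to 97.5). Ndufb9, a complex I subunit, differed by -3.82, and 1 Gata3-low cell with 193739 TPM held 98.9% of its side's total. Without each side's highest cell the difference was -3.03. Atpif1, the inhibitor of ATP synthase, was likewise held by 1 cell on each side (93.2% of the Gata3-high total and 81.7% of the Gata3-low total), with a difference of -3.22. Glrx5, a mitochondrial glutaredoxin used for iron-sulfur clusters, was seen in 10 of 22 Gata3-high cells (0 to 993 TPM, median 0) and 9 of 10 Gata3-low cells (0 to 850.4 TPM, median 116), a difference of -2.92.

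The remaining leading genes on that side differed by -2.80 to -2.40. Cox6b1, another subunit of cytochrome c oxidase, was seen in 11 of 22 Gata3-high cells and 8 of 10 Gata3-low cells (-2.70), while Cox8a of the same enzyme leaned the other way. Lamtor2, part of the Ragulator complex that anchors mTORC1 to lysosomes, was seen in 6 of 22 Gata3-high and 6 of 10 Gata3-low cells (-2.80), and Rraga, a GTPase that binds Ragulator, in 10 of 22 Gata3-high and 10 of 10 Gata3-low (-1.85). Apool, of the complex that shapes mitochondrial cristae, was seen in 2 of 22 Gata3-high and 5 of 10 Gata3-low cells (-2.58). Mrpl49 and Mrps9, proteins of the mitochondrial ribosome, differed by -2.66 and -2.40. Cdipt makes phosphatidylinositol (-2.78), Cndp2 is a dipeptidase (-2.75), Adh5 clears formaldehyde (-2.51), Spint2 inhibits serine proteases (-2.42), Ube2g1 is a ubiquitin-conjugating enzyme (-2.46) and Psma4 a proteasome subunit (-2.40). By share of cells, Erap1, which trims peptides for MHC class I, and the tyrosine kinase gene Fes were each seen in 2 of 22 Gata3-high cells and 6 of 10 Gata3-low cells. Traf3ip3 was seen in 5 of 22 Gata3-high and 7 of 10 Gata3-low cells, and Timm22, a channel of the mitochondrial inner membrane, in 1 of 22 Gata3-high and 5 of 10 Gata3-low.

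Few ILC2 genes other than Gata3 were measured on either side. Of 26 list members in the table, 12 were listed at 0 in all 32 cells, among them the interleukin 33 receptor gene Il1rl1 and the cytokine genes Il4, Il5, Il9, Il13 and Areg. Only 5 members passed the filter, 2 higher and 3 lower, with a median difference of -0.02 beside 0.36 over all genes, and 0 lay past 2 in either direction (5.89% of all genes did). Arg1, which breaks down arginine, had 0 to 841 TPM (median 9.91) in Gata3-high cells and 0 to 239 TPM (median 18.5) in Gata3-low cells (-0.02). The stem cell antigen gene Ly6a (-0.29) and Neurl3 (-0.47) were each seen in 12 of 22 Gata3-high cells and 6 of 10 Gata3-low cells. Klrg1, an inhibitory receptor of mature ILC2s that missed the filter, was seen in 1 of 22 Gata3-high cells and 3 of 10 Gata3-low cells. Summed over the list, Gata3-high cells held 0 to 1722 TPM (median 173) and Gata3-low cells 23.2 to 782 TPM (median 157).

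ILC3 genes were seen on both sides, with differences under the limit of 2. The chemokine receptor genes Ccr6 and Cxcr5 differed by 1.23 and 1.60, with Ccr6 seen in 20 of 22 Gata3-high and 9 of 10 Gata3-low cells and Cxcr5 in 12 of 22 Gata3-high and 4 of 10 Gata3-low cells. Ltb, one of the lymphotoxin genes, was in every cell with 279.9 to 6362 TPM (median 1572) in Gata3-high cells and 90.4 to 2469 TPM (median 707) in Gata3-low cells (0.86), and its partner Lta differed by 1.05. Il23r, the interleukin 23 receptor chain, was at 0.20 and Tmem176b, a membrane protein gene typical of ILC3s, at 0.40. On the other side of 0 lay Kit, the stem cell factor receptor (-0.49, 17 of 22 Gata3-high and 10 of 10 Gata3-low cells), and Il22, the barrier cytokine (-1.48), seen in 4 of 22 Gata3-high cells (18.2%, 5.19 to 40.3) and 4 of 10 Gata3-low cells (40%, 12.2 to 73.8). Of 25 members, 20 passed the filter, 15 higher and 5 lower, with a median of 0.43, and 0 lay past 2. Over all genes, 65.3% were higher and 5.89% past 2 in either direction. The list median was 0.0025 with the common genes scaling and 0.15 with the 5th percentile scaling. Ncoa7 (1.07) and Gpr183, an oxysterol receptor that guides ILC3s (0.90), were seen in all 32 cells, and Pram1 was at -1.22.

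Genes shared by all ILCs leaned toward the Gata3-high side by small amounts. All 13 members of the core ILC list that passed the filter (of 15) had a higher mean there, with a median of 0.75 and 0 past 2. Thy1 among them was in no Gata3-low cell and could only be higher. Of all genes, 65.3% were higher. The list median was 0.53 and 0.57 with the common genes and the 5th percentile scaling. Id2, the repressor that every ILC needs, averaged 11.05 ± 1.34 log2(TPM + 1) in Gata3-high cells and 10.57 ± 1.41 in Gata3-low cells (SD, n = 22 and 10 cells), and ranged over 287 to 8480.3 and 278 to 4679 TPM. Il2rg, the common gamma chain that the recipients lack, averaged 10.02 ± 1.42 and 9.56 ± 1.54 on the same scale (SD, n = 22 and 10 cells). Both differences are under 1 SD. The integrin gene Itga4, which takes lymphocytes to the gut, was seen in 13 of 22 Gata3-high cells (0 to 84.8 TPM, median 5.58) and 2 of 10 Gata3-low cells (0 to 8.98 TPM, median 0), a difference of 1.79. Thy1, a surface marker of ILCs, was seen in 5 of 22 Gata3-high cells and 0 of 10 Gata3-low cells, and Il18r1, the interleukin 18 receptor, in 8 of 22 Gata3-high and 1 of 10 Gata3-low. Cd7 (0.14) had the smallest difference of the 13, and Il2ra (0.53), Itgb7 (0.69) and Ptprc, the gene of the sorted antigen CD45 (0.75), lay further up.

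The lists for ILC1 and natural killer cells and for ILC precursors stayed near the median of all genes, of which 65.3% were higher. Of 22 ILC1 and NK genes, 10 were listed at 0 in all cells, the interferon gamma gene Ifng among them. The 7 that passed had 5 higher and 2 lower means (median 0.11, and -0.14 with the common genes scaling). Ncr1, the NK receptor NKp46, was seen in 7 of 22 Gata3-high cells and 3 of 10 Gata3-low cells (0.11), and Klrb1b in 20 of 22 Gata3-high and 9 of 10 Gata3-low (0.58). Of 18 precursor genes, 12 passed, 9 higher and 3 lower (median 0.43, and 0.016 with the common genes scaling). Tcf7, the TCF-1 gene used by early ILCs and T cells, was seen in 21 of 22 Gata3-high and 10 of 10 Gata3-low cells (0.62). Pdcd1, the PD-1 gene that marks committed precursors, was seen in 11 of 22 Gata3-high cells (0 to 317 TPM, median 6.40) and 2 of 10 Gata3-low cells (0 to 116 TPM, median 0), a difference of 1.72. Tox2 was seen in 6 Gata3-high cells and listed at 0 in all Gata3-low cells, so it could only count as higher. Tox was at 0.04.

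**Figure D4:**
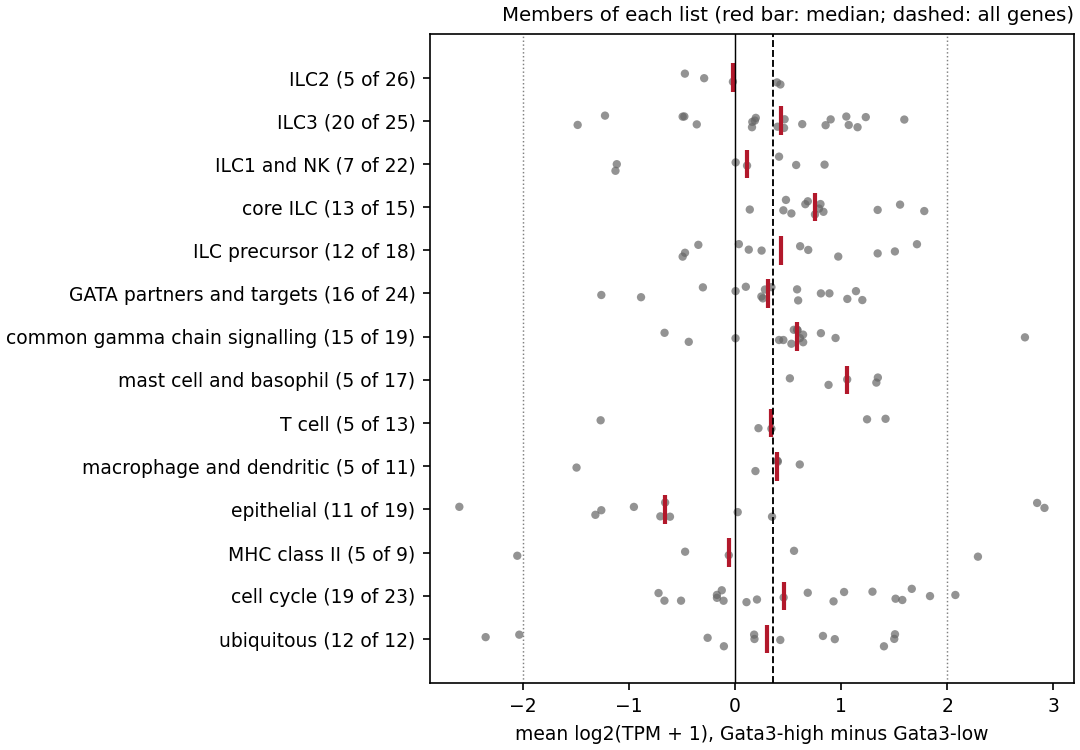
Difference in mean log2(TPM + 1), Gata3-high minus Gata3-low, for the members of 14 lists that passed the filter (number of those in the table in brackets). Points are genes, red bars are list medians, the dashed line is the median of 0.36 over all genes and dotted lines mark 2 in each direction. The ILC lists lie inside the dotted lines.

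Known partners and targets of GATA3 gave 13 higher and 3 lower means among the 16 of 24 that passed, and 0 past 2. Of all genes, 65.3% were higher and 5.89% past 2 in either direction. The list median was 0.31, under the 0.36 of all genes. Il7r, a GATA3 target that encodes the sorted antigen CD127, was in every cell, with 22.6 to 1341 TPM (median 213) in Gata3-high cells and 15.4 to 592 TPM (median 168) in Gata3-low cells (0.59). Rora, the transcription factor gene that ILC2s and many ILC3s use, was also in every cell, with 12.9 to 790.3 TPM (median 152) in Gata3-high cells and 10.7 to 439 TPM (median 91.6) in Gata3-low cells (1.20). Lmo4, a LIM adaptor gene, was seen in 21 of 22 Gata3-high and 9 of 10 Gata3-low cells (1.06), the Polycomb methyltransferase gene Ezh2 in 7 of 22 Gata3-high and 2 of 10 Gata3-low (1.14), and Bcl11b, a factor of T cells and ILC2s, in 8 of 22 Gata3-high and 1 of 10 Gata3-low (0.89). The costimulator gene Icos (-0.88) and Mta2 of the NuRD repressor (-1.26) had the lowest differences.

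Of 15 common gamma chain signalling genes compared, 1 lay past the limit, beside 5.89% of all genes in either direction. Jak1, the kinase paired with many cytokine receptors, had 0 to 355 TPM (median 56.8) in Gata3-high cells and 0 to 179 TPM (median 0) in Gata3-low cells, a difference of 2.73, and was seen in 20 of 22 Gata3-high (90.9%, 70.8 to 98.9) and 4 of 10 Gata3-low cells (40%, 12.2 to 73.8). Jak3, which binds the gamma chain itself, was at -0.66 and the feedback inhibitor gene Cish at 0.64. The list had 13 higher and 2 lower means among 15, where 65.3% of all genes were higher. Its median of 0.59 was -0.061 with the common genes scaling and 0.067 with the 5th percentile scaling. Receptors of the interleukin 1 family and TSLP had 5 higher and 1 lower (median 0.70), with Il1rap at 1.16. A member of that list was in no Gata3-low cell and could only be higher. Notch pathway genes had 6 higher and 1 lower (median 0.66), with the gamma-secretase gene Ncstn at 1.56. Published work with R9 stem cells induces Runx1 and Hoxa9, which the labels do not state. Hoxa9 was seen in 14 of 22 Gata3-high cells and 4 of 10 Gata3-low cells (1.96), and Runx1 in 15 of 22 Gata3-high and 8 of 10 Gata3-low (-0.47).

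Antigen presentation genes gave values on both sides of 0. Of the MHC class II list, H2-Aa, the alpha chain of I-A, was higher by 2.29, with 0 to 1527 TPM (median 239) in Gata3-high cells and 0 to 306 TPM (median 71.6) in Gata3-low cells. H2-Eb1, the beta chain of I-E, was lower (-2.05), with 0 to 851 TPM (median 14.3) in Gata3-high cells and 0 to 298 TPM (median 76.1) in Gata3-low cells. The direction of H2-Eb1 rested on the log scale, since its mean TPM was 109.6 in Gata3-high cells and 106.2 in Gata3-low cells, a log2 ratio of 0.045. H2-Ab1, the partner of H2-Aa, was at -0.06, and the invariant chain gene Cd74, in every cell, at 0.56. The class I list had 8 higher and 4 lower means (median 0.58, and -0.025 with the common genes scaling), where 65.3% of all genes were higher. Of its 12 genes compared, Tap1 alone was past the limit, beside 5.89% of all genes. The chaperone gene Tapbp was at 1.58.

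Proliferation, stress, cytokine, homing and housekeeping lists had medians from -0.31 to 0.68, on both sides of the 0.36 over all genes. Of all genes, 65.3% were higher and 5.89% lay past 2 in either direction. Of 19 cell cycle genes, 12 were higher and 7 lower (median 0.46), and Stmn1, a microtubule regulator, was past the limit (2.08, 18 of 22 Gata3-high and 7 of 10 Gata3-low cells). The replication helicase genes Mcm6 and Mcm2 were seen in 14 of 22 and 7 of 22 Gata3-high cells and 4 of 10 and 0 of 10 Gata3-low cells. Mcm2 could therefore only count as higher. The heat shock list had 7 higher and 2 lower (median 0.44, and -0.070 with the common genes scaling), with the Hsp40 gene Dnajb1 at 2.18. Immediate early genes had 13 higher and 2 lower (median 0.62, and -0.074 with that scaling), with Ier2 at 1.06. Interferon response genes had 3 higher and 6 lower (median -0.31), glycolysis genes 9 and 3 (median 0.30, and -0.19 with that scaling), effector cytokines 2 and 2 (median -0.04), and gut homing genes 10 and 3 (median 0.68, and 0.10 with that scaling, with the chemokine receptor gene Ccr7 at 1.48). The list of ubiquitous genes held a pair past the limit, both lower in Gata3-high cells, Hprt of purine salvage (-2.35, -1.66 without each side's highest cell) and the translation-associated Tpt1 (-2.03, -1.49). Ppia, a cyclophilin seen in all cells, was at 1.51 in the other direction.

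Markers of other cell types were present on both sides of the split. Mast cell genes were seen in most cells, with a summed 122 to 4876 TPM (median 1404) in Gata3-high cells and 61.1 to 2681 TPM (median 1067) in Gata3-low cells. Of that list, 5 of 17 passed and all 5 were higher (median 1.06, 0 past 2). Of all genes, 65.3% were higher and 5.89% lay past 2 in either direction. The list median was 0.53 with the common genes scaling, 0.62 with the 5th percentile scaling and 0.047 by the difference of medians. The higher members included the protease genes Tpsb2 (1.33, 22 of 22 Gata3-high and 9 of 10 Gata3-low cells), Cpa3 (1.06) and Cma1 (0.88). Ms4a2, a chain of the IgE receptor, was listed at 0 in all cells. Epithelial genes had a median sum of 1278 TPM (43.5 to 435978) in Gata3-high cells and 11340 TPM (37.3 to 190592) in Gata3-low cells. No Gata3-low cell lay near 11340 TPM, the nearest sums being 1337 and 21344 TPM. Of the 11 genes that passed, 4 were higher and 7 lower (median -0.66). That median turned to 0.32 without each gene's highest cell on each side and to 0.35 over the members seen in at least 10 cells. It was 0.70 with the Gata3 limit of 100 TPM. The first and last of these steps also moved the median of all genes, to 0.59 and 1.02. The fatty acid binding protein gene Fabp1 (2.85) and the antimicrobial lectin gene Reg3g (2.92) were higher, the galectin gene Lgals4 was lower (-2.60), and Epcam was seen in 0 of 22 Gata3-high and 3 of 10 Gata3-low cells. Of the other epithelial genes, Cdh1, Muc2 and Cldn7 were at 0 in all cells. Krt8 was seen in 6 of 22 Gata3-high and 3 of 10 Gata3-low cells, and Vil1 in 2 of 22 and 2 of 10.

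T cell genes summed to 30.7 to 1728 TPM (median 304) in Gata3-high cells and 44.2 to 548 TPM (median 210) in Gata3-low cells. Of the 5 compared, 4 were higher (median 0.34), where 65.3% of all genes were higher. Lck (1.42) and Lat (1.25), which ILCs also express, were higher, Cd3g was at -1.27 (5 of 22 Gata3-high and 4 of 10 Gata3-low cells), and Cd3d, Cd5 and Cd8a were at 0. Macrophage and dendritic genes summed to 41.5 to 3920 TPM (median 469) in Gata3-high cells and up to 1698 TPM (median 350) in Gata3-low cells, with 4 of 5 higher (median 0.40, and -0.22 with the common genes scaling). The complement gene C1qc was seen in 12 of 22 Gata3-high and 5 of 10 Gata3-low cells, Lyz2 in 21 of 22 Gata3-high and 10 of 10 Gata3-low, and Cd14 and Itgax were at 0. The erythroid list rested on Hba-a2 alone (0.75). B cell, neutrophil and endothelial sums had a median of 0 on both sides. The part of any of these transcripts in the differences between the sides was not tested.

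The same limit was then applied to the 35 cells of title ending 1, which the rule did not use. The 26 pairs of columns with the same number in both sets had a Pearson r of 0.169 to 0.523 (median 0.283), beside a median of 0.285 over the 1094 other pairs, so a shared number did not go with alike values here. There 8 cells were Gata3-high and 27 Gata3-low, and the tilt of all genes ran the other way, with a median difference of -0.35 over 5843 genes and 39.2% of genes higher. Past the limit were 246 genes higher in Gata3-high cells (4.21%) and 378 lower (6.47%). Over the 3950 genes compared in both sets, Pearson's r between the differences was 0.02 and Spearman's rho 0.01, a description across genes that are not independent. Of the 211 higher genes, 203 could be compared there, and 88 (43.3%) were higher again, beside 40.4% of all genes compared in both, with 16 past the limit in the same direction. Of the 68 lower genes, 65 could be compared, and 42 (64.6%) were lower again, beside 59.6% of all, with 6 past the limit. Both shares are near the background.

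Of all genes compared in both sets, 40.4% were higher and 59.6% lower in the cells of ending 1. Among the leading 15 higher genes, 5 were higher and 10 lower there, and among the leading 15 lower genes, 12 were lower and 3 higher. Among those that kept their direction, Itm2c had the largest difference in the cells of ending 1 (3.24, beside 3.57 in the 32 cells), with detection in 8 of 8 Gata3-high and 27 of 27 Gata3-low cells there. Srp9 (1.29), Ndufs6 (0.99), Snx3 (0.72) and Cox8a (0.64) also kept theirs, and so did, among the 12 on the lower side, Glrx5 (-2.06) and Mrps9 (-2.64). Rnf7 (-1.12), Cct2 (-1.43), Arhgef3 (-2.34), Nudt4 (-2.80) and Ppil2 (-3.57) turned round. The ILC and GATA partner genes had mixed directions. Itgb7 (2.76), Ccr6 (2.18), Il2rg (1.81), Id2 (1.34) and Lmo4 (1.32) were higher there too. Tcf7 (-2.19), Klrb1b (-2.04), Ncoa7 (-1.04), Ezh2 (-0.76), Bcl11b (-0.33) and Lta (-0.28) were on the other side of 0. The core ILC list had 8 higher and 4 lower (median 0.39) and the ILC3 list 10 and 9 (median 0.03). The GATA partner list had 7 higher and 9 lower (median -0.43) and the ILC2 list 0 and 5 (median -1.02). Of all genes compared there, 39.2% were higher, with a median of -0.35. Genes detected per cell had medians of 2312.5 in the 8 Gata3-high cells (2011 to 2676) and 2451 in the 27 Gata3-low cells (1913 to 6042), the reverse order of the 32 cells.

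**Figure D5:**
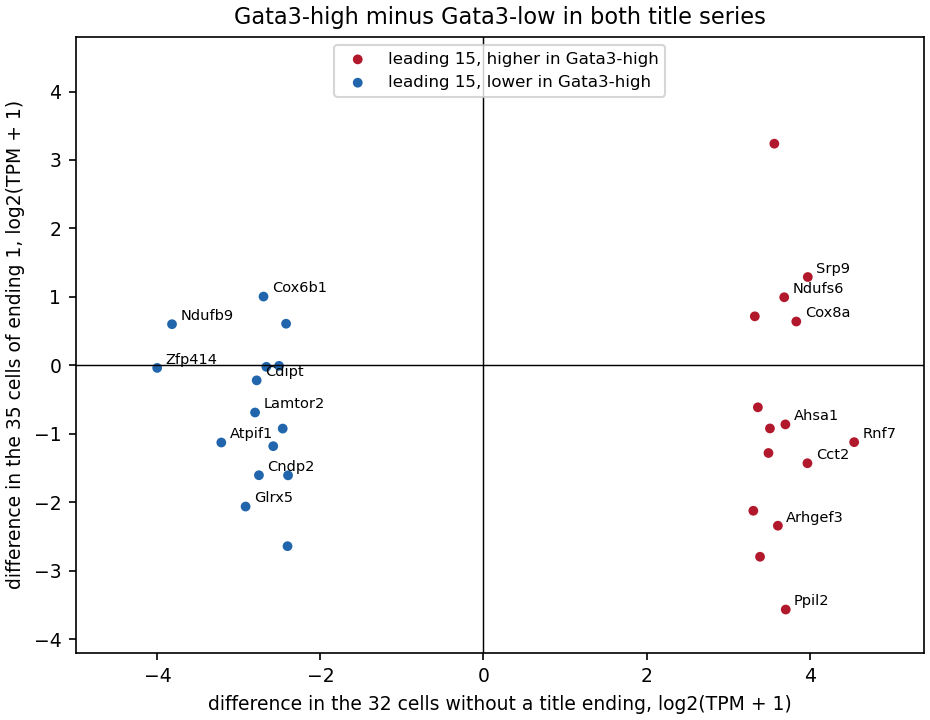
Difference in mean log2(TPM + 1), Gata3-high minus Gata3-low, of the 30 leading genes in the 32 cells that chose them (x axis) and in the 35 cells of title ending 1 (y axis). Red points led the higher direction and blue points the lower one. Of the 15 red points 5 lie above 0 and of the 15 blue points 12 lie below 0 on the y axis, where 59.6% of all genes compared in both sets were lower.

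Moving the limit to 100 TPM, inside the Gata3-high side, gave another picture of the same 32 cells. With 10 cells at 100 TPM or more set against the other 22, 1048 genes (22.1%) were higher by 2 or more and 11 (0.232%) lower, and the median over all genes was 1.02. The ILC3 list then had a median of 1.93. When each cell was first divided by the 5th percentile described above, the medians were 0.44 over all genes and 0.59 over the ILC3 list, a scaling chosen after seeing the data. Of the 30 leading genes, 24 kept their direction at the limit of 100 TPM and 16 of them stayed past 2. Ndufb9 was then higher in the cells with more Gata3 (1.49), and Reg3g was lower (-0.38).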

How the data were processed

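Single cells were profiled one by one, and each sample of the series is 1 column of a cell, and some WT-ILC cells may have more than 1 column. Per the labels' protocols, polyadenylated RNA was amplified as cDNA (Discover-sc WTA Kit V2) and made into libraries (TruePrep DNA Library Prep Kit V2). The submitters' processing notes list StringTie 1.3.4, HISAT2 2.1.0, SAMtools 0.1.19, bcl2fastq and the mm10 build, with no role or order given. The authors deposited TPM values, which sum to 1e+06 in each cell, for 23420 gene symbols. They hold no counts, so the depth of a cell is unknown.

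Cells were split at 10 TPM of Gata3. Means of log2(TPM + 1) (pseudocount 1 TPM) and shares of cells at 1 TPM or more were compared for genes that reached 1 TPM in at least 5 of the 32 cells, with a limit of 2 for the difference of means and of 30 percentage points for the share. "Passed the filter" refers to those 5 cells. No test was run across the 32 cells, which are 1 sample. The calculation was tested on simulated data. Calculations ran in Python 3.11.15 with pandas 2.3.3, numpy 2.4.6 and scipy 1.17.1, and plots in matplotlib 3.10.9. Coordinates come from the GRCm38 annotation by gene symbol, and promoter windows from RefSeq (GRCm38.p6).

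The rule for named genes took the GATA family and the 15 largest differences in each direction among genes seen in 50% or more of the higher side's cells, with a share at least 20 points higher there and the same sign without each side's highest cell. Predicted, mitochondrial and ribosomal protein genes were left out. It then took the 5 largest further differences in share, the members of the ILC, GATA partner and mast cell lists seen in 25% or more of either side's cells, and up to 4 such members of each other list. A few textbook markers (Thy1, Cd3d, Cd5, Cd8a, Cd14, Itgax, Ms4a2, Cdh1, Muc2, Cldn7, Krt8, Vil1, Ifng, Epcam and the ILC2 genes at 0) are given besides. A few genes that the rule named are not reported here. The members, the 30 gene lists and the rule were chosen with earlier results of these data known. Alternatives varied the Gata3 limit, the scaling, the filters, the pseudocount, the average used and the cells, and each cell was left out in turn.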

Additional observations from a re-analysis of the deposited data

Results flagged for a closer look

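Among the 10 Gata3-low cells, 1 cell stood far from the other 9 for 5 of 31 values examined (Dixon's ratio above its 95% critical value). The leading genes among these values were chosen from the same cells, so no chance rate is set beside this count. With 9 cells at 0, as for Ppil2, Arhgef3 and Fam53a, the ratio is 1 whatever the last value. All values are log2(TPM + 1). Ppil2 was at 5.61 in 1 cell and listed at 0 in the other 9. Arhgef3 was at 2.24 in 1 cell and Fam53a at 4.99 in the same cell, R9-ILC 37, with the other 9 listed at 0. Ahsa1 was at 8.45 in 1 cell, with the next at 3.20. These 4 genes led the Gata3-high side, so the outlying Gata3-low cell lies in the direction that makes the difference smaller. Ndufb9, which led the other side, was at 17.6 in 1 cell, with the next at 9.30, and its difference of -3.82 was -3.03 without the highest cell on each side.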

How the results depend on the processing

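Differences over the 32 cells have no replicate check, the depth of a cell is unknown, and listed zeros can be failed estimates. No paired analysis was possible because the cells share only title numbers and no result comes from a test. A Gata3 limit of 1 TPM, or only cells at 0 on the low side, gave the same cells. None of the 32 cells had over 4000 genes detected. Each cell left out in turn gave 194 to 277 genes higher and 54 to 95 lower. All 30 leading genes stayed on their side and 26 of them were always past 2. They were chosen as the largest differences in the same 32 cells, so this follows largely from their choice. In the 16 cells with fewer genes detected (9 Gata3-high, 7 Gata3-low) 224 genes were higher and 229 lower, and in the 16 with more (13 and 3) 624 and 509, with medians of 0.04 and 0.21. Averaged over both sets, 150 genes were higher and 154 lower. The causes of the shifts below were not tested, and the 5th percentile scaling and the comparison of cells at 100 TPM with cells at 0 were chosen after seeing the data.

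Against 211 genes higher and 68 lower, a pseudocount of 0.1 TPM gave 664 and 240, one of 10 TPM 19 and 5, the log2 ratio of mean TPM 933 and 213, and the difference of medians 400 and 257. Scaling by common genes gave 183 and 146, scaling by the 5th percentile 192 and 121, and a filter of 10 cells 184 and 44. By share of cells, against 246 higher and 128 lower, the lower count was 84 with detection at 10 TPM, 64 with the filter of 10 cells and 234 without cells in which 1 gene held 25% or more. Under the log2 ratio of mean TPM the epithelial list was at -3.54 (0.32 without each gene's highest cell on each side) and H2-Eb1 turned to 0.045.

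With the limit of 100 TPM, 1048 genes were higher and 11 lower, and 483 and 47 by share. The median over all genes was 1.02, and the lists were at 1.34 (GATA partners and targets), 1.93 (ILC3), 2.00 (common gamma chain), 1.92 (immediate early), 1.65 (MHC class II), 1.98 (gut homing), 1.51 (glycolysis), 1.89 (heat shock) and 1.46 (ubiquitous). Turned round were Ndufb9 (1.49), Cox6b1 (0.53), Psma4 (0.46), Ube2g1 (0.40), Hprt (0.11), Mrps9 (0.067), Glrx5 (0.056), Tpt1 (0.041) and Reg3g (-0.38). With that limit and the 5th percentile scaling together, 378 genes were higher and 45 lower, the Notch list was at -0.52, and Fabp1 (-0.34), Reg3g (-0.70), Ndufb9 (0.45), Psma4 (0.14) and Ube2g1 (0.038) turned round. The 10 cells at 100 TPM or more against the 10 at 0 gave 987 higher and 42 lower, 860 and 205 by share, and medians of 1.52 for MHC class II and 1.91 for gut homing.

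In the cells of ending 1, 378 genes were lower, 96 higher and 437 lower by share, the median over all genes was -0.35, the T cell list was at -1.92 and the cell cycle list at -0.56. The median number of genes detected differed by -138.5, against 287 in the 32 cells. Turned round were Ppil2 (-3.57), Nudt4 (-2.80), Arhgef3 (-2.34), Fam53a (-2.12), Reg3g (-1.82), Stmn1 (-1.67), Cct2 (-1.43), Tmem179b (-1.28), Rnf7 (-1.12), Tap1 (-1.04), Jak1 (-0.98), Vps25 (-0.92), Ahsa1 (-0.86), Dnajb1 (-0.86), Ndufa10 (-0.61), Ndufb9 (0.60), Spint2 (0.61), Cox6b1 (1.00), Tpt1 (2.44) and Timm22 (2.83).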
